A study of Mus musculus with 3 samples.

Results

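Polycomb repressive complex 2 (PRC2) was followed here through the mRNAs of 10 of its subunits, Ezh1, Ezh2, Eed, Suz12, Rbbp4, Rbbp7, Jarid2, Aebp2, Mtf2 and Phf19. They were measured in J1 mouse embryonic stem cells (mESCs) treated with PD0325901 (PD), an inhibitor of the kinase MEK. The subunits were chosen by name from known biology and not by their values, although earlier results of these data were known. Their probes were found through the transcript accession that each array spot carries, which gave 16 probes of 27235 named ones and 10 genes of 20660. All 3 samples were J1 cells, a line of strain 129S4/SvJae. They were grown without feeder cells and with 1000 U/mL leukemia inhibitory factor (LIF), and kept in 1 µM PD for 24 h. They were replicates 1 to 3 of 1 group, and the study's methods speak of independent experiments. Cells without PD were not analysed here, so no effect of PD on PRC2 was measured and no p-value was computed. J1 is a single cell line, which limits what the values stand for.

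PRC2 places methyl groups on lysine 27 of histone H3, a mark of silent chromatin that in mESCs lies on the promoters of many developmental genes. The methyltransferase is Ezh2 or its paralogue Ezh1. It works with Eed, which binds the methylated histone tail and stimulates the enzyme, with Suz12, the scaffold of the complex, and with the histone-binding proteins Rbbp4 or Rbbp7. Accessory subunits divide the complexes into classes. Mtf2 and Phf19 are Polycomb-like proteins found in PRC2.1, and Jarid2 and Aebp2 are the partners in PRC2.2.

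The level of a probe is given as the log2 of its processed signal minus the 75th percentile of its array, so a level of 0 lies at that percentile (signals of 551, 511 and 527 on replicates 1, 2 and 3) and 1 unit is a doubling. Errors are SDs over the 3 replicates (n = 3) unless another n is given. A gene with several probes is represented by the probe with the highest mean level, and because probes of different sequence bind with different strength, levels of different genes were not compared. All 3 arrays were on 1 slide and in 1 scan. Replicate 2 differed from the others in 6 of 48 blocks of the slide surface that each held at least 10 non-uniform spots, against 0 such blocks on replicates 1 and 3, and 12.5% of its probes lay in them. No spot was saturated. All 7 markers of pluripotent cells were well above background on every array. Since 72.7% of all named genes were too, detection alone says little about the cell label. Among the markers were Pou5f1 (4.56 ± 0.42), Esrrb (6.28 ± 0.10), Nanog (0.39 ± 0.05) and Sox2 (3.50 ± 0.23, lowest on replicate 2). Pou5f1 was the marker of these 7 with a range above 0.5 log2 units, with 4.35, 5.04 and 4.28. Replicate 2 alone was high, and the SD was 0.05 without it. Of 6 fibroblast genes, Postn and Lum were at background on all 3 arrays and Col3a1 was above it on 1 array. Col1a1 (-1.23 ± 0.04), Col1a2 (-0.31 ± 0.23, in a block of non-uniform spots on replicate 2) and Thy1 (0.24 ± 0.09) were detected, and their part in the levels below was not tested. In RNA from whole cultures, fewer cells with a transcript and less transcript per cell cannot be told apart.

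All 10 PRC2 subunits were detected, meaning that their probe was flagged well above background on all 3 arrays. Among all named genes 72.7% were. The same held for 16 of 16 probes of these genes, against 72.4% of named probes. Of the 5 subunits with several probes (Ezh1, Rbbp4, Rbbp7, Aebp2 and Mtf2), each was detected by every probe, against 68.8% of the named genes with several probes. Both alternative enzymes, both alternative histone-binding proteins and members of both accessory classes therefore gave signal in the same 3 cultures.

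**Figure D1:**
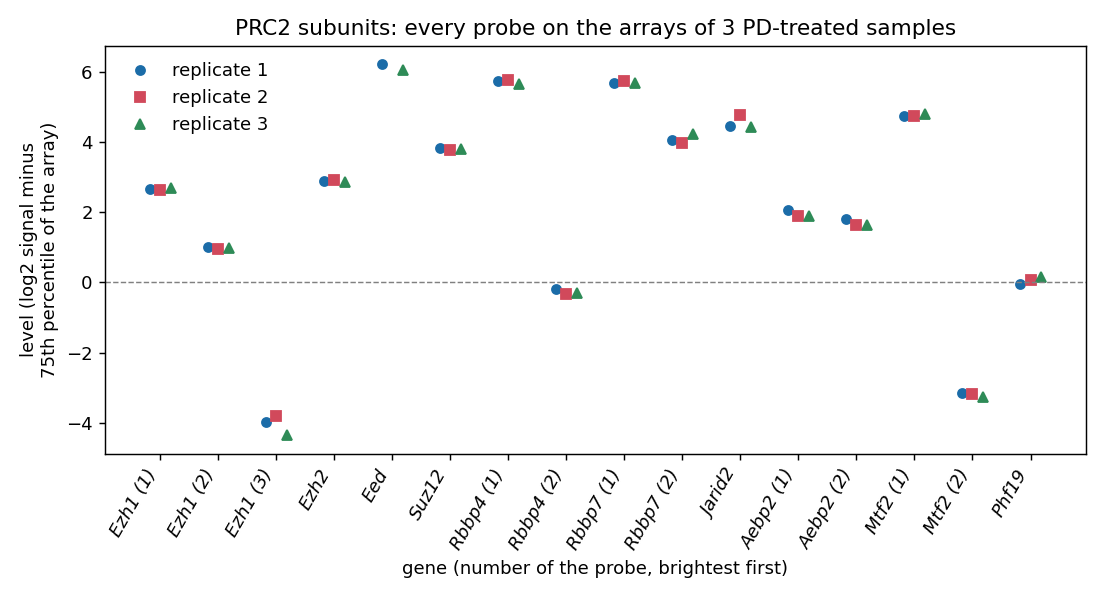
Level of each PRC2 subunit in each replicate, in log2 units relative to the 75th percentile of the array (y axis), with points for the 16 probes and 3 replicates. The replicates of a probe lie close together, while the probes of Ezh1, Rbbp4 and Mtf2 lie 6.71, 5.99 and 7.96 log2 units apart. The numbers in parentheses order the probes of a gene by brightness, the dashed line is level 0, and the non-uniform Eed spot of replicate 2 is left out.

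Ezh2, the main methyltransferase of dividing cells, gave processed signals of 4049, 3904 and 3824 on replicates 1, 2 and 3. After scaling these were levels of 2.88, 2.93 and 2.86, a mean of 2.89 ± 0.04. The replicates differed by 1.05-fold at most, with replicate 2 highest. For Ezh1, the paralogue with weaker enzyme activity, the representing probe gave 2.66, 2.64 and 2.70, a mean of 2.66 ± 0.03, so replicate 3 was highest, by 1.04-fold over the lowest.

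Eed, the reader subunit, gave levels of 6.21 on replicate 1 and 6.04 on replicate 3, a mean of 6.13 ± 0.12 (SD, n = 2). Its spot on replicate 2 was flagged non-uniform, in a block with 46 non-uniform spots, and was left out. With that spot the levels were 6.21, 5.64 and 6.04, the mean 5.97 ± 0.29 (n = 3), and replicate 2 was 1.49-fold below replicate 1. An outlier flag on some array was thus met by 1 of the 10 subunits, against 0.18% of detected named genes.

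Suz12, without which the complex is not stable, gave processed signals of 7913, 6993 and 7311, or levels of 3.85, 3.77 and 3.80 with a mean of 3.80 ± 0.04. Replicate 1 was highest, and the fold between highest and lowest was 1.05. The spread was thus of the size seen for Ezh2. The histone-binding subunits Rbbp4 and Rbbp7 also sit in other chromatin complexes, so their mRNA is not particular to PRC2. The representing probe of Rbbp4 gave 5.74, 5.77 and 5.65 (mean 5.72 ± 0.06) and that of Rbbp7 gave 5.70, 5.75 and 5.67 (mean 5.71 ± 0.04). Both were highest on replicate 2 and lowest on replicate 3, by 1.09-fold and 1.05-fold.

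Among the PRC2.2 partners, Jarid2, a DNA-binding relative of the histone demethylases without their activity, gave 12070, 13931 and 11271 units of processed signal. The levels were 4.45, 4.77 and 4.42, with a mean of 4.55 ± 0.19. Replicate 2 stood above both others, by 1.27-fold over replicate 3, which was the widest range of the 9 subunits measured on every array. Given the error that the scanner software assigns to each spot, the difference came to 1.71 combined errors. An SD larger than that of Jarid2 was found for 12.0% of detected genes. Without replicate 2 the SD of Jarid2 was 0.02 (n = 2). Aebp2, a zinc finger cofactor, gave 2.06, 1.90 and 1.90 by its representing probe (mean 1.95 ± 0.09) and 1.80, 1.63 and 1.65 by the other (mean 1.69 ± 0.10). Replicate 1 was highest by both probes.

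Among the PRC2.1 partners, Mtf2, a Polycomb-like protein that binds CpG-rich DNA, gave 14759, 13719 and 14606 units of processed signal by its representing probe. The levels of 4.74, 4.75 and 4.79 gave a mean of 4.76 ± 0.03, the smallest SD of the 9 subunits. Its replicates differed by 1.03-fold. The Polycomb-like paralogue Phf19 gave signals of 529, 538 and 586 and levels of -0.06, 0.07 and 0.15 (mean 0.06 ± 0.11). Replicate 3 was highest, by 1.16-fold over replicate 1.

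Across the 9 subunits with a level on every array, the SD between replicates ran from 0.03 (Mtf2) to 0.19 (Jarid2), with a median of 0.038, beside a median of 0.074 over 14999 detected genes. The gap depended on the scaling: the medians were 0.070 and 0.077 with arrays scaled to their median, and 0.062 and 0.065 after normexp background correction. They were 0.042 and 0.073 both with quantile normalization and with the 75th percentile over detected probes. Spread depends on brightness. The median SD fell from 0.14 in the dimmest of 4 equal groups of detected genes ordered by level through 0.076 and 0.060 to 0.055 in the brightest, and 6 of the 9 subunits were in the brightest group. Set against genes of their own group, 5 of 9 subunits lay below the median SD. Ezh1, Ezh2, Suz12, Rbbp7 and Mtf2 were the subunits with an SD of 0.04 or less, and Jarid2, Phf19 and Aebp2 those above the overall median.

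**Figure D2:**
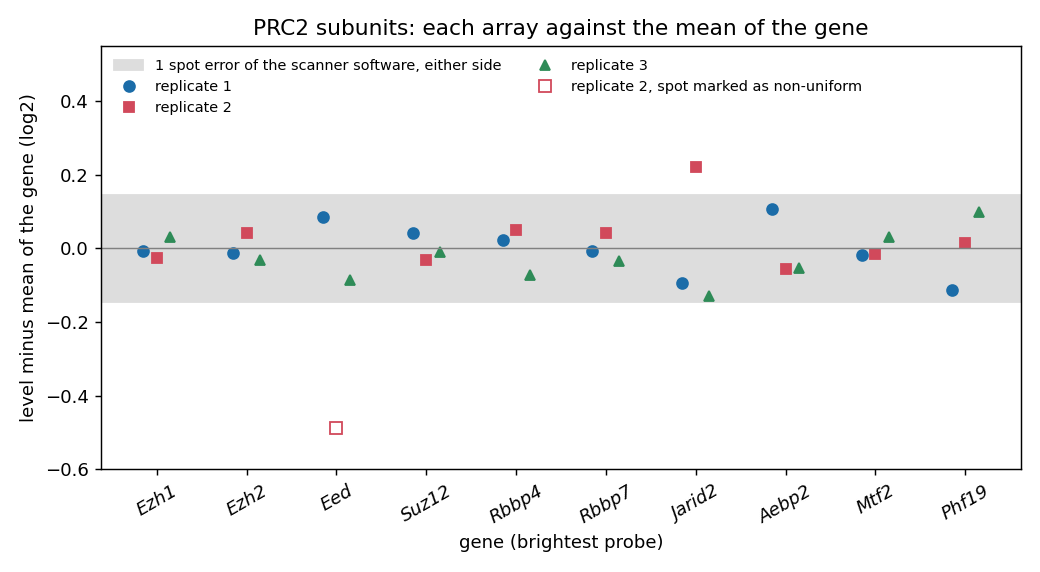
Deviation of each replicate from the mean of the replicates (y axis, log2 units) for the representing probe of each PRC2 subunit, with a grey band for the spot error of the scanner software on either side. Jarid2 on replicate 2 stands farthest from its mean among the 9 subunits with all 3 spots, and the open square is the non-uniform Eed spot, which was left out of the mean.

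Of these 9 subunits, 0 had a highest and a lowest replicate more than 0.5 log2 units (1.41-fold) apart, against 6.26% of detected named genes. For 9 genes a count of 0 lies near that share, so it does not set the subunits apart. The share also pools dim and bright genes. Of the 27 pairs of replicates, 0 differed by more than 2 combined spot errors, against 3.66% of pairs over all detected genes. With the non-uniform Eed spot kept, replicates 1 and 2 of Eed differed by 2.80 combined errors, and the count was 1 of 30 pairs. The software sets that error at close to 10% of the signal for each of these spots, and it is not a spread measured between replicates. Differences within 2 combined errors were not called. The largest difference of the 9 subunits, for Jarid2, came to 1.71 combined errors. The pair count of 0 therefore restates the count of ranges, and it does not set the subunits apart either. Replicate 1, 2 and 3 was farthest from the median of the arrays for 3 subunits each, against 28%, 42.8% and 29.1% of detected genes. Replicate 1 was highest for 2 of them (Suz12 and Aebp2), replicate 2 for 4 (Ezh2, Rbbp4, Rbbp7 and Jarid2) and replicate 3 for 3 (Ezh1, Mtf2 and Phf19), against 24.5%, 46.5% and 29% of detected genes, so both counts lay near those of all genes. The array that was highest stayed so under all 6 scalings tried for 4 of the 9 (Suz12, Jarid2, Aebp2 and Phf19) and turned with the scaling for the other 5.

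**Figure D3:**
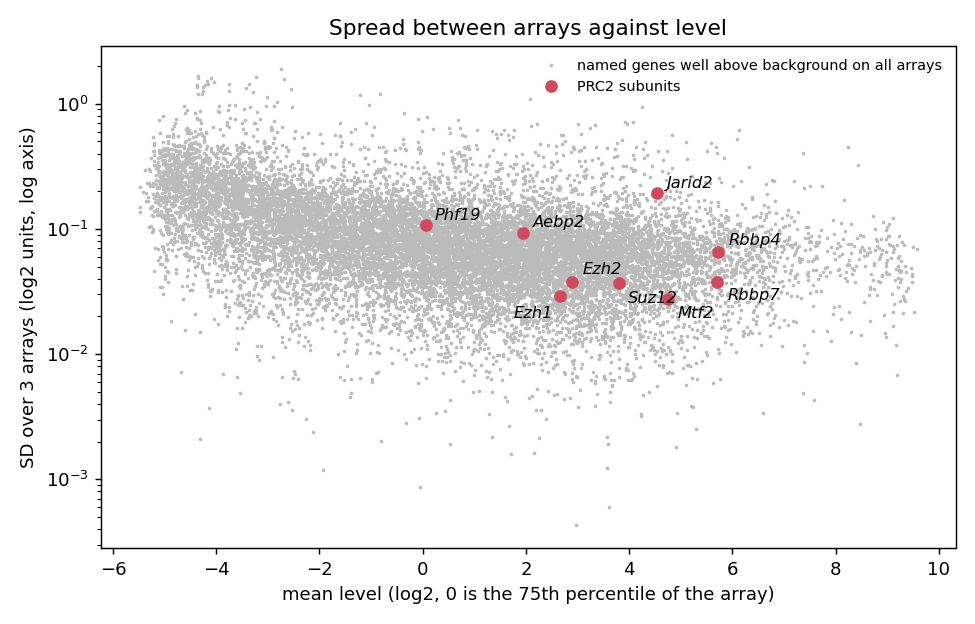
SD over the 3 replicates (y axis, log2 units on a logarithmic axis) against mean level (x axis, log2 units relative to the 75th percentile) for all detected named genes, with the PRC2 subunits marked. The SD falls as the level rises, and Jarid2 lies above the other subunits at an SD of 0.19.

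Probes of a single gene lay farther apart than the replicates of a probe. Mtf2 had the widest gap of the 5 subunits with several probes. Its second probe carries a different transcript accession and gave signals of 62.1, 56.7 and 54.5, or levels of -3.15, -3.17 and -3.27 (mean -3.20 ± 0.07), 7.96 log2 units below the first. Genes with a wider gap made up 1.78% of the 3768 named genes with several detected probes, where the median gap was 2.20 log2 units. Both Mtf2 probes were above background on every array.

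The other probes of Ezh1 gave 1.00, 0.95 and 0.98 (mean 0.98 ± 0.03) and -3.99, -3.80 and -4.35 (mean -4.05 ± 0.28). The dimmest had signals of 34.6, 36.7 and 25.8, lay in a block of non-uniform spots on replicate 2, and was the probe of these genes with the widest range, 0.55 log2 units. Its replicates 2 and 3 differed by 2.12 combined spot errors. The gap between the brightest and the dimmest Ezh1 probe was 6.71 log2 units, wider than in all but 4.14% of such genes. The second probe of Rbbp4 gave -0.19, -0.33 and -0.31 (mean -0.28 ± 0.07), a gap of 5.99, wider than in all but 6.66%. Rbbp7 and Aebp2 were closer. The second Rbbp7 probe gave 4.06, 3.98 and 4.24 (mean 4.09 ± 0.13), 1.61 below the first, and the gap of Aebp2, whose probes also carry different transcript accessions, was 0.26, with 91.8% of such genes having a wider one. The same replicate was highest by every probe for Aebp2 and not for Ezh1, Rbbp4, Rbbp7 or Mtf2.

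The DNA at the start sites of these genes was looked at because Polycomb-like subunits bind unmethylated CpG and because Mtf2 has more than 1 annotated start. RefSeq (GRCm38.p6) gave 14 start windows for the 10 genes, each running from 250 bases before the start to 50 after it. The 250 bases before the start are shown for Ezh2, for Suz12, which had the most CpG, and for both starts of Mtf2, which contrast a CpG-rich with a CpG-poor one. They are written 5′ to 3′ on the strand of the gene, with every CpG in capitals. The windows are Ezh2 (chr6:47595031-47595280, minus strand, 23 CpG), Suz12 (chr11:79992856-79993105, plus strand, 37 CpG), the upstream start of Mtf2 (chr5:108065424-108065673, plus strand, 23 CpG) and its downstream start (chr5:108077915-108078164, plus strand, 2 CpG).
Ezh2: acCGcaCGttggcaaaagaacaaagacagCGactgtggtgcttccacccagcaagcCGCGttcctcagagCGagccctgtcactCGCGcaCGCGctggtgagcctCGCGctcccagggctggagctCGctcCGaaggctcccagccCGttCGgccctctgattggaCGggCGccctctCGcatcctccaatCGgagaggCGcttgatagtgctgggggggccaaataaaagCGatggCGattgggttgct
Suz12: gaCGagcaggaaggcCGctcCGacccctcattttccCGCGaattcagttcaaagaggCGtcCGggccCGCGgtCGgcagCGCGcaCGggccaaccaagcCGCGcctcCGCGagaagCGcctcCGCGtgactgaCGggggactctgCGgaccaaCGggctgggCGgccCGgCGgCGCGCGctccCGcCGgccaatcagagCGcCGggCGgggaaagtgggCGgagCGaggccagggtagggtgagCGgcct
Mtf2 upstream start: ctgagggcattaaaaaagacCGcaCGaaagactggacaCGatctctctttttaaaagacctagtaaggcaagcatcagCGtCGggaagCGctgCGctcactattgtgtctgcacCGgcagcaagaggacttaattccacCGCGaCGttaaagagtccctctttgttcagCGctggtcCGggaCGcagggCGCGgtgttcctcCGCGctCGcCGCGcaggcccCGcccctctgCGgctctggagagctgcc
Mtf2 downstream start: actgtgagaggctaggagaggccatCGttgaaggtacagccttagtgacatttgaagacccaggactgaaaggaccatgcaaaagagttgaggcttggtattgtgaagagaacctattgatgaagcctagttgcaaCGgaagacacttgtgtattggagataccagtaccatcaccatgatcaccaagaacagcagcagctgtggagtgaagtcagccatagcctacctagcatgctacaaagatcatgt

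A window was called CpG-rich if its GC content was above 50% and its CpG count above 0.6 of that expected from its C and G. That was met by 11 of the 14 windows (78.6%), against 10935 of 32851 windows of all genes (33.3%). Each of the 10 subunits had at least 1 CpG-rich window, against 35.8% of all genes with a window, whether on the arrays or not. The windows that did not meet it were the downstream start of Mtf2 and 2 of the 3 of Aebp2. CpG-rich windows were as common in the lists of related chromatin genes described below, so they are not particular to the subunits. The share was 80% of 5 windows of other PRC2 cofactors and 78.6% of 28 PRC1 windows. It was 100% of 12 windows of NuRD and CAF-1 and of 4 windows of H3K27 demethylases and the H2A deubiquitinase list. Genes with a CpG-rich window were also detected more often on these arrays, 92.3% of them against 52.9% of genes without. Among detected genes 7708 had a CpG-rich window and 4250 had none. All subunits were detected, so the share of 35.8% overstates the contrast. The search used the letters CG alone, and the table does not tell which start the transcript of each Mtf2 probe uses.

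**Figure D4:**
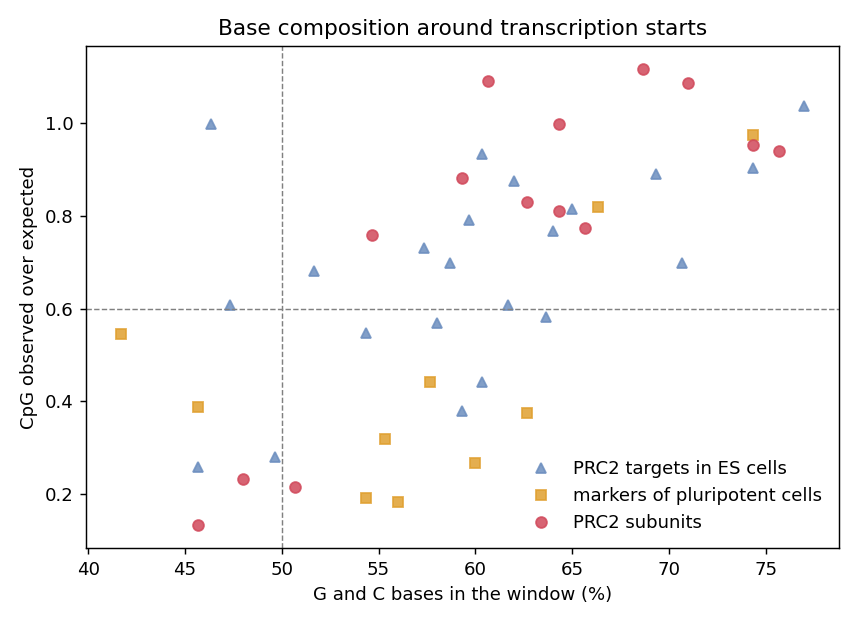
Observed over expected CpG (y axis, ratio) against GC content (x axis, percent) for each start window of the PRC2 subunits (circles), of PRC2 targets in ES cells (triangles) and of markers of pluripotent cells (squares), with dashed lines at 50% and 0.6. Of the subunits' 14 windows 11 lie to the upper right of both lines, against 13 of 22 windows of the targets and 2 of 10 of the markers. The lists of related chromatin genes, not drawn, had shares from 78.6% to 100%.

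The genes that work beside PRC2 were read from lists of the pathway. Of 5 further cofactors, 5 were detected. Epop, which links PRC2.1 to elongin, gave 5.98, 6.02 and 5.97 (mean 5.99 ± 0.02). Ezhip, an inhibitor of the enzyme, gave 2.23, 2.32 and 2.27 (mean 2.27 ± 0.05). The third Polycomb-like paralogue, Phf1, gave -1.16, -1.32 and -1.36 (mean -1.28 ± 0.10), so a transcript of every Polycomb-like paralogue was above background. Lcor, whose locus encodes a PRC2.1 partner, had the widest range of the cofactors, with -2.64, -2.82 and -3.17 (mean -2.88 ± 0.27). It was the cofactor of these 5 whose range passed 0.5 log2 units, and replicate 3 was lowest.

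PRC1, the complex that ubiquitinates histone H2A and binds the PRC2 mark, was represented by 24 genes, and 24 were detected. Their median SD was 0.063, and 0 had a range above 0.5 log2 units. Its catalytic subunits Rnf2 (3.58 ± 0.03, in such a block on replicate 2 too) and Ring1 (-1.55 ± 0.02) differed little between replicates. The chromobox protein Cbx7 gave -1.64 ± 0.07, and Kdm2b, which brings a variant PRC1 to CpG islands, gave 5.05 ± 0.07. L3mbtl2 varied most of the 24, with 1.09, 0.62 and 0.93 (mean 0.88 ± 0.24), and was lowest on replicate 2, where its spot lay in a block of non-uniform spots. Without replicate 2 its SD was 0.11 (n = 2). Enzymes that remove the marks and cofactors of 1 of them were detected too, 6 of 6 genes. The H3K27 demethylases Kdm6a and Kdm6b gave 0.26 ± 0.12 and 2.02 ± 0.11, and Bap1, the H2A deubiquitinase, gave 3.29 ± 0.04. The other genes of that list, Asxl1, Asxl2 and Asxl3, are cofactors of Bap1. Asxl1 varied most of the list, with 5.04, 4.67 and 5.01 (mean 4.91 ± 0.20). It was lowest on replicate 2, where its spot lay in a block of non-uniform spots. Asxl2 gave 1.33 ± 0.11 and Asxl3 gave -2.11 ± 0.15. Of the other complexes that hold Rbbp4 and Rbbp7, NuRD and CAF-1, 12 of 12 genes were detected. Chaf1a, the large subunit of CAF-1, had the widest SD there, with 2.79, 2.72 and 3.03 (mean 2.85 ± 0.16).

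**Figure D5:**
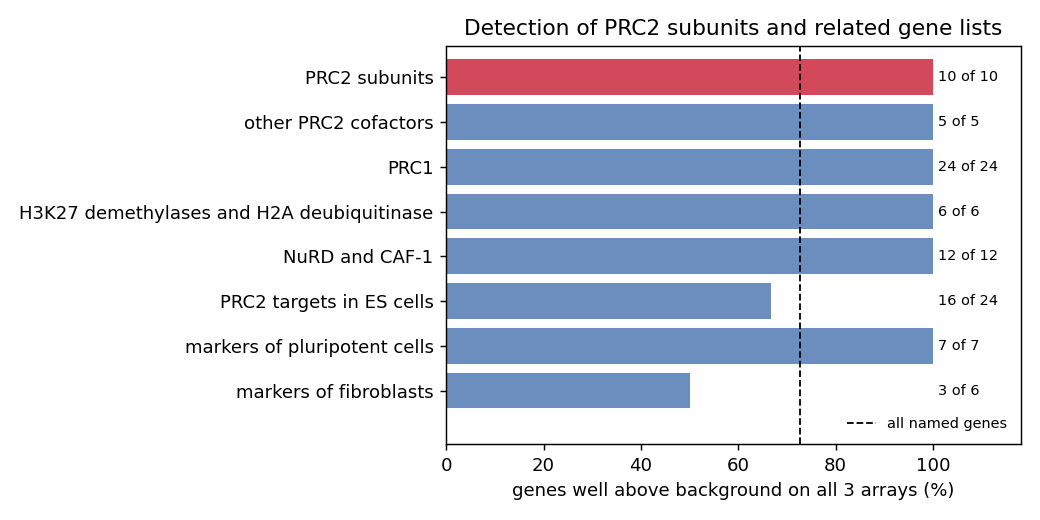
Share of the genes of each list that were well above background on all 3 arrays (x axis, percent), with the number of genes beside each bar and the share over all named genes as a dashed line. All lists of Polycomb and chromatin complexes stand at 100%, while known PRC2 targets stand at 66.7%.

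Of 24 developmental regulators known as PRC2 targets in ES cells, 16 were detected on all 3 arrays (66.7%, against 72.7% of all named genes). Neurog2, Hoxd11, Cdx2, Hand1 and Tbx5 were at background on every array, while Pax7 was above it on 1 array and Lhx5 and T (brachyury) on 2. The detected targets included the endoderm regulators Gata4 (-2.39 ± 0.10), Gata6 (-2.53 ± 0.10) and Sox17 (-3.26 ± 0.09). The Hox gene Hoxa9 (-3.88 ± 0.08, in a block of non-uniform spots on replicate 2) was detected too. So were Eomes (0.03 ± 0.17), a regulator of early mesoderm, and the signalling ligand Wnt1 (0.94 ± 0.09). The replicates differed by more than 0.5 log2 units for 2 of the 16. Both have 2 probes, and only the probe of highest mean was read, a choice that can favour a probe high on 1 array. That probe of Pax3 gave -3.58, -0.86 and -3.60, so replicate 2 alone was high, and the SD was 0.02 without it. Cdkn2a, a cell cycle inhibitor locus, gave 0.63, 1.04 and 0.49 (mean 0.72 ± 0.29), also with replicate 2 highest, and its SD was 0.10 without that replicate. No level of the histone mark itself was measured by these arrays, and probes of different genes cannot be ranked, so the detection counts are the comparison that these lists allow.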

How the data were processed

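Per the file headers, the authors' scanner values are spot intensities from Agilent Feature Extraction 10.7.3.1 (1 colour, Cy3), already background-subtracted and detrended within each array and not normalized between arrays. The authors also deposited a log2 value table whose normalization is not given in the sources used here. Accessions were matched to RefSeq GRCm38.p6 symbols. Control spots and spots flagged non-uniform or population outliers were left out. The level was log2 processed signal minus the 75th percentile of each array over non-control probes. A probe was detected with at least 50% of its spots well above background on each array. The software's signal error gave the combined error of a pair of replicates. All 16 probes had 1 spot, so a planned test between arrays on replicate spots (limma) was not run. Alternatives were other scalings, normexp with offset 50 (limma 3.58.1, R 4.3.3), the deposited table, other probe rules, other detection rules, a stricter error limit and leaving out each replicate. Named genes were all subunits, plus examples of each list. The subunits and lists were chosen with earlier results of these data known. The calculations were tested on simulated data. With 3 arrays, means and SDs are imprecise.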

Additional observations from a re-analysis of the deposited data

How the results depend on the processing

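Detection of the 10 subunits and of their 16 probes was the same under every alternative run. Those rules were looser than the main one or followed from all 16 probes passing it, so this outcome could not have differed. The median SD of the subunits, 0.038 with 9 of them, was 0.070 after scaling to the median of each array and 0.062 after normexp. It was 0.052 with the mean of a gene's detected probes and 0.097 with its lowest detected probe. Quantile normalization and the 75th percentile over detected probes gave 0.042 each. The deposited table gave 0.059, and keeping outlier spots (chosen after seeing the data) gave 0.051. Both of these medians cover 10 subunits, with Eed (SD 0.29 in both) added, so they are not over the same genes as 0.038. Leaving out each replicate gave 0.035 to 0.052, where the 0.035, without replicate 2, also covers 10 subunits. Over all detected genes the median SD, 0.074, was 0.077 with median scaling, 0.065 after normexp and 0.073 in the deposited table. It was 0.073 with quantile normalization and with the 75th percentile over detected probes, and 0.050 to 0.067 when each replicate was left out. The gap to the subunits thus narrowed most with median scaling and normexp. The scaling to the median shifted arrays against each other by up to 0.09 log2 units. A range above 0.5 log2 units was found for 1 subunit in the deposited table and with outlier spots kept (Eed in both), and for 1 with the lowest detected probe (Ezh1), against 0 otherwise. With all detected probes counted, 1 of 45 pairs of replicates differed by more than 2 combined errors (Ezh1), as did 1 of 30 with outlier spots kept (Eed), and 0 of 27 with a limit of 3. No paired analysis was possible because there was 1 group, with nothing to pair it with. The dimmest probes, near the lowest signals well above background (10.1, 11.4 and 10.3 on replicates 1, 2 and 3), carry the least precise values.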
